A study of Mus musculus with 30 samples.

Results

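Gene expression in the stroke-denervated cervical hemicord was compared between mice at 28 days post injury (dpi) and sham-operated mice. All animals labelled 28d with a column of values (A3-1, A3-3, A4-1, A4-3 and A4-4) were set against all labelled Ctrl (A11-1, A11-4, A12-1, A12-2 and A12-3), which makes 10 of the 29 animals with values in the series. The stroke animals were adult C57BL/6 (C57BL/6J in the study's methods) female mice with a unilateral photothrombotic stroke of the right sensorimotor cortex, and the sham animals were mice of the same strain, sex and stage that had the operation without a stroke. The intermediate laminae of spinal levels C5/C6 were trimmed out with blades, so the tissue held neurons, glia and vessels of that area and some neighbouring tissue. Each sample was 1 animal. The first number in an animal's name (its unit) was 3 or 4 at 28 dpi and 11 or 12 in the sham group, so unit and group cannot be told apart.

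Corticospinal neurons of the motor cortex send their axons across the midline to the opposite side of the cord, where they act mainly through interneurons of the intermediate laminae. After a large cortical stroke these axons degenerate, the target field loses that input, and spared fibers from the intact cortex can sprout into it. Sprouting fibers meet guidance cues, extracellular matrix and glia of the target tissue, and local neurons can adjust their synapses and activity-dependent genes. The comparison addressed which genes of that tissue were expressed at another level at 28 dpi than after sham surgery.

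The values were described as read counts scaled to library size (CPM) and are rounded to 0.1, but they did not sum to the same total in each animal. They were compared between animals as deposited, and not between genes of different length. A gene passed the test when its adjusted p was under 0.05 in a limma fit of log2(value + 0.5) over all 6 groups, with Benjamini-Hochberg adjustment over 16995 genes, and it was counted as a significantly differentially expressed gene (SDEG) when its change was also above 1.5-fold, which is 0.585 on the log2 scale. Differences are given on this log2 scale with their standard error (SE), and 5 animals per group stand behind every value. The 0.5 added to each value makes changes of genes with low values look smaller. Of all 16995 genes 4230 (24.9%) passed and 789 (4.64%) were SDEGs. Of 13790 named protein-coding genes, 308 (2.23%) were SDEGs, with 254 (1.84%) higher and 54 (0.392%) lower at 28 dpi. The 54 became 29 in the fit of the 10 animals alone, 34 with correction for transcript length and GC content or with median centring, and 17 (without A3-3) to 212 (without A11-1) on leaving out 1 animal, with 20 without A12-1, 25 without A12-3 or A4-4, 36 without A4-3, 189 without A3-1 and 210 without A4-1. Without the fold limit 1305 (9.46%) rose and 2086 (15.1%) fell. Over all genes these were 2024 and 2206, and 1387 and 815 in the fit of the 10 animals alone. For the gene groups below, rose and fell mean an adjusted p under 0.05, and 9.46% and 15.1% are the shares to set beside their counts. The 5 animals at 28 dpi lay entirely above the 5 sham animals for 642 named genes (4.66%) and entirely below them for 612 (4.44%). Another 452 SDEGs that were higher and 29 that were lower were predicted genes, noncoding genes or genes without a name. The kit did not mark strand, so reads of a gene and of an annotated gene over its exons on the opposite strand cannot be told apart, which applies here to Notch1, Notch3, Plxna1, Plxna4, Dscam, Bdnf, Mt2, Fn1, Lama3, Nova2, Srrm2, Hnrnpk, Srsf1, Shank1, Syn1, Grin2b, Grin2d, Cacna1a, Map1a, Nr1d1, Alas2, Cx3cr1, P2ry12 and Cdr1.

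Some properties of the libraries moved with the group. The value of 18S ribosomal RNA was 30320.8 to 52929.1 in the sham animals. At 28 dpi it was 417970.5 in A3-1, 779159.7 in A3-3, 291949.9 in A4-3 and 323192.5 in A4-4, against 44755.2 in A4-1, the animal within the sham range (two-sided exact permutation test, p = 0.0159; the smallest possible p is 0.00794). The value of mt-Rnr1, a ribosomal RNA of mitochondria, was 6542.8 to 23735.3 at 28 dpi and 4636.2 to 6516 in sham, without overlap (exact permutation p = 0.00794). The sum of all values was 790539.5 in A4-1 and 1345047.5 to 2256910.1 in the other animals at 28 dpi, against 777343.6 to 818510.2 in sham (exact permutation p = 0.0238). The median value over genes was 10.2 to 11.2 at 28 dpi and 10.6 to 11.1 in sham. Longer transcripts were higher and shorter ones lower in 3 of the animals: the slope of log2 value on log2 transcript length was 0.0701 in A3-3, 0.0757 in A4-3 and 0.1025 in A4-4, above the highest sham animal (0.0563), while A3-1 (-0.0016) and A4-1 (-0.0011) lay inside the sham range (exact permutation p = 0.0952 for the groups). With the named genes split into 10 equal classes by length, in the shortest (204 to 1560 bases) 10 were SDEGs that rose and 40 SDEGs that fell, and the median log2 change was -0.30. In the longest (7021 to 123179 bases) 59 were SDEGs that rose, 0 were SDEGs that fell in the limma fit (21 fell at an adjusted p under 0.05 by less than the fold limit), and the median was 0.17. In A4-1 alone the same medians were -0.00 and 0.05. With the log2 value of 18S as a covariate in the limma fit, 0 genes passed (3751 of all genes at an unadjusted p under 0.05), and with A3-1 and A4-1 as the only animals at 28 dpi 0 genes passed as well (2779). With the covariate, 307 of the 308 named SDEGs kept their direction. The median size of their change was 0.61, against 0.67 without it, the median SE was 0.214 against 0.174, and the lowest adjusted p among them was 0.0547. For the 54 that fell the median size went from 0.63 to 0.46.

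**Figure D1:**
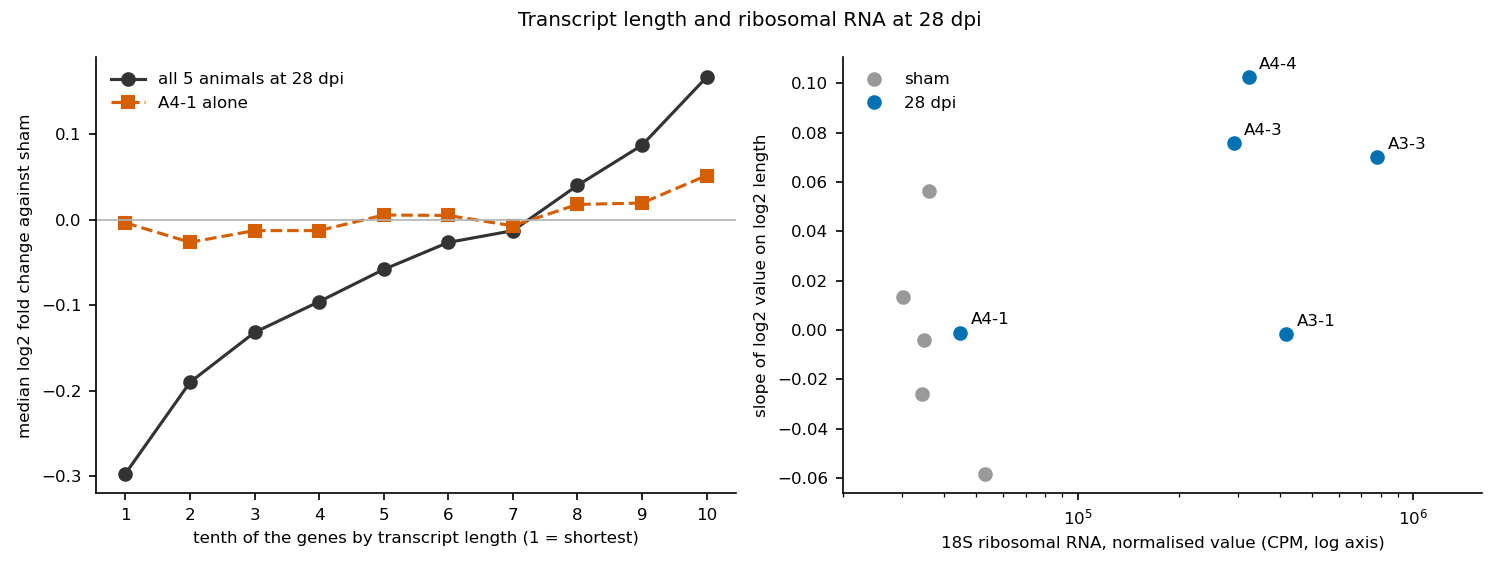
Left, median log2 fold change against sham (vertical axis) of the named protein-coding genes in 10 classes by transcript length (horizontal axis, 1 the shortest), for all 5 animals at 28 dpi and for A4-1 alone. Right, slope of the log2 value on log2 transcript length (vertical axis) against the 18S ribosomal RNA value (horizontal log axis, CPM) in each animal; the median climbs from -0.30 to 0.17 over the classes, and A4-1 sits among the sham animals on both measures of the right panel.

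Named SDEGs that were higher and those that were lower differed in how many animals carried them. The SDEGs were found again with each animal at 28 dpi left out of the fit, and that animal was then read on its own against the sham animals, which the fit and the reading share. The 260 named genes higher without A4-1 had a median of 0.63 in A4-1 (0.68 in the fit), and 80% of them were above every sham animal there, against 22.5% of all named genes. The corresponding share was 70.8% in A3-1, 89.2% in A3-3, 84.9% in A4-3 and 71.4% in A4-4, beside 15.6%, 26.5%, 24.7% and 23.7% of all named genes. The medians were 0.39 in A3-1 (0.69 in its fit), 0.85 in A3-3 (0.69), 0.60 in A4-3 (0.69) and 0.53 in A4-4 (0.70). For genes that fell the left-out animals were unlike each other. Of 210 genes lower without A4-1, 11% were below every sham animal in A4-1 (21.1% of all named genes were), with a median of -0.07, and of 189 lower without A3-1, 12.7% were so in A3-1. The share was 88.2% of 17 genes in A3-3, 69.4% of 36 in A4-3 and 68% of 25 in A4-4. Of all named genes 17.7% were below every sham animal in A3-1, 36.8% in A3-3, 33.4% in A4-3 and 32.5% in A4-4. In the fit of all animals, 163 of the 254 named SDEGs that were higher lay above every sham animal in all 5 animals. Of the 54 that were lower, 12 lay below every sham animal in all 5. Over all named genes these counts were 642 (4.66%) and 612 (4.44%). The sham animals also served to pick the genes, which raises all these shares by an amount that was not measured.

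The study names 16 genes for the late phase after stroke, among them growth factors, guidance cues and metallothioneins. It chose them on these same animals, so their count is not independent evidence. Of these 16, 12 rose, 3 fell and 1 did not pass the test. The list had 9 SDEGs that were higher, 1 that was lower and a median change of 0.59, beside -0.04 over all named genes. Sema6a (chr18:47235598-47368870, mm10), a transmembrane semaphorin that acts as a guidance cue and as a receptor, had values of 31.7, 28.7, 27.5, 37.1 and 28.8 in the sham animals and 41.0, 59.9, 43.2, 41.1 and 49.1 at 28 dpi. The groups did not overlap, and the change was 0.59 (SE 0.104, limma adjusted p = 0.00139). For Ntng2, a membrane-anchored netrin that binds a synaptic adhesion molecule, sham values of 6.8 to 8.0 compared with 9.8, 16.0, 11.5, 15.9 and 12.5 (log2 change 0.76, SE 0.142, adjusted p = 0.00145). Each animal at 28 dpi was again above each sham animal, including A4-1. An exon of the predicted gene 6530402F18Rik overlaps Ntng2 on the same strand.

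Further genes of that list belong to transcription, signalling and adhesion. Sox9, a transcription factor of astrocytes and progenitors, had sham values of 7.8, 7.2, 6.8, 8.9 and 8.4 and values of 10.3, 14.9, 15.1, 13.3 and 11.8 at 28 dpi (0.70, SE 0.128, adjusted p = 0.00139 in limma). It was highest in A4-1. Srgap1, a GTPase activating protein downstream of Robo receptors, rose by 0.59 (adjusted p = 0.00242). Notch3, the receptor typical of mural cells, rose by 0.73 (adjusted p = 0.00145) with overlapping groups, since A3-1 had 12.9 and the highest sham animal 14.0. Plxna1, a semaphorin receptor, rose by 0.46 (adjusted p = 0.00238; 0.29 with correction for transcript length and GC content), Tgfbr3, a coreceptor for TGF-beta, by 0.41 (adjusted p = 0.00837), and Itga3, an integrin subunit that binds laminins, by 0.36 (adjusted p = 0.00527).

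The secreted factors of the list varied more among the animals. Gdf7, a ligand of the BMP family, had sham values of 1.8, 1.6, 3.1, 2.1 and 2.5 and values of 11.5, 22.9, 1.9, 13.5 and 9.4 at 28 dpi. The rise of 1.89 (SE 0.527, limma adjusted p = 0.0117) was absent in A4-1, which had 1.9 and a difference from the sham mean of -0.15, and the call was lost without A3-3. Gdf7 was therefore high in the same 4 animals as 18S ribosomal RNA. Lif, a cytokine that acts on neurons and glia, was at 0.5 to 1.1 in sham and at 1.2, 1.3, 1.5, 1.3 and 2.2 at 28 dpi, close to the rounding step of 0.1 (0.76, adjusted p = 0.00745). Tgfb1 itself did not pass (0.42, SE 0.193, adjusted p = 0.103), with 1.4 to 2.2 in sham and 2.7, 4.5, 2.4, 1.8 and 1.7 at 28 dpi. Pax2, a transcription factor of inhibitory interneurons, rose by 0.69 (adjusted p = 0.0217), a call that was lost without A12-1, A3-3, A4-1 or A4-4.

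The 3 members of that list that fell were Bdnf, Mt1 and Mt2. Bdnf, a neurotrophin whose transcription follows neuronal activity, had 4.0, 4.1, 6.2, 4.4 and 5.6 in the sham animals and 3.3, 2.7, 2.9, 3.8 and 3.5 at 28 dpi (-0.51, SE 0.165, limma adjusted p = 0.0254). The groups did not overlap, but the call was lost without A12-1, A12-3 or A3-3. Mt1 and Mt2, metallothioneins that bind zinc and copper, fell by 0.58 (adjusted p = 0.0207) and by 0.75 (adjusted p = 0.00636). Mt1 was at 52.1 to 116.3 in sham and at 66.4, 45.3, 79.9, 56.7 and 32.2 at 28 dpi, so A3-1, A4-1 and A4-3 lay within the sham range, with a difference of -0.01 from the sham mean in A4-1. For Mt2 the sham animals ranged from 14.5 to 33.4 and the animals at 28 dpi had 18.1, 10.8, 19.2, 14.6 and 9.5, so the groups overlapped. The Mt1 call was lost without A12-1, A3-3 or A4-4 and in the fit of the 10 animals alone (adjusted p = 0.0895).

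**Figure D2:**
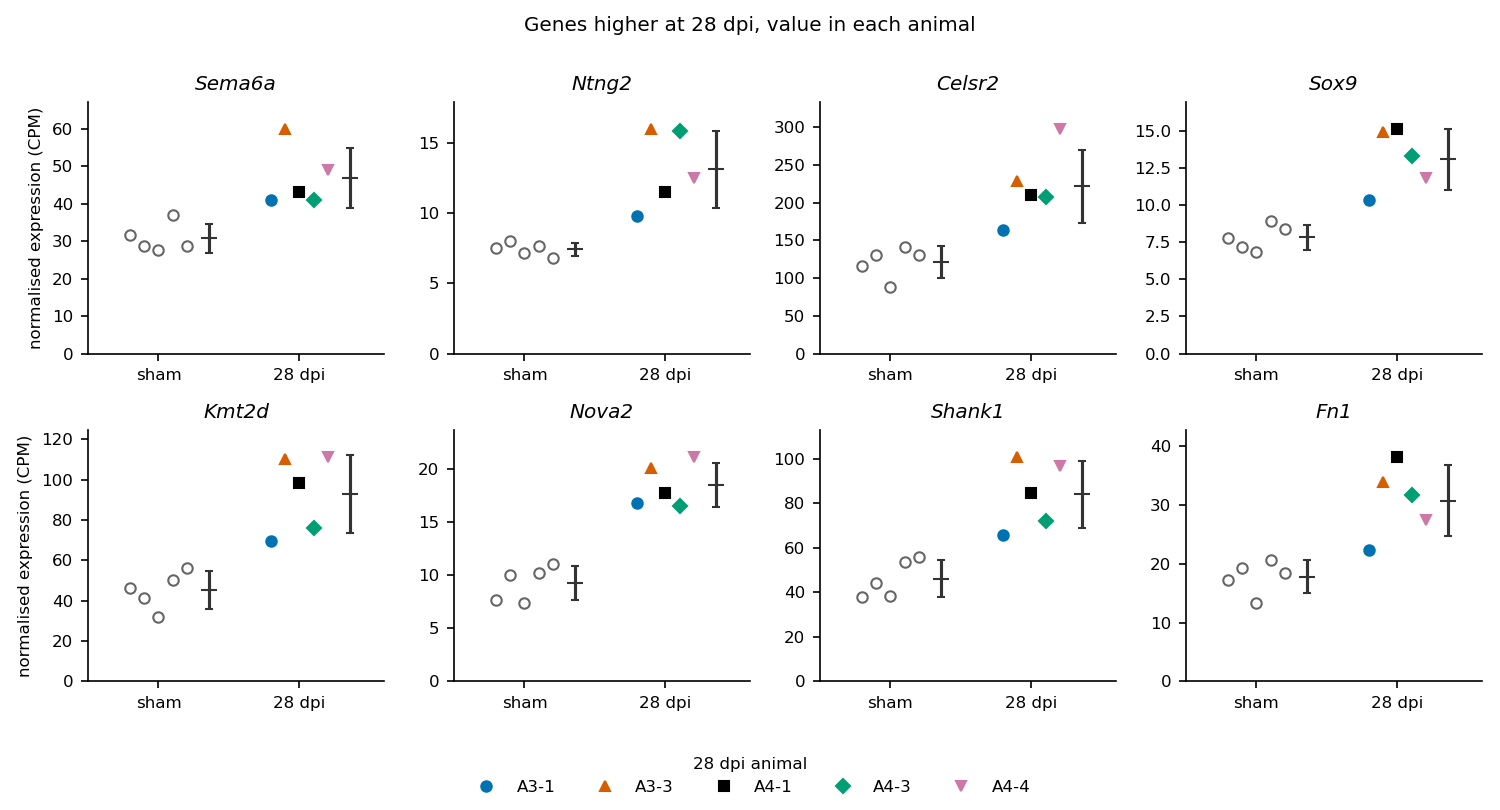
Normalised expression (CPM, vertical axis from 0) of 8 genes that rose, in each sham animal (open circles) and each animal at 28 dpi (filled symbols, 1 per animal), with mean and SD (bars) beside each group. No animal at 28 dpi overlaps the sham animals for any of the 8 genes, and A4-1, the animal with 18S ribosomal RNA in the sham range, is raised in each.

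Axon guidance genes included more that rose than fell. Of 40 receptors measured, 12 passed the test upward and 1 downward, with a median change of 0.19, and 7 passed upward and 0 downward in the limma fit of the 10 animals alone. Of 37 cues 6 rose and 2 fell, with a median of 0.13, beside 9.46% and 15.1% of all named genes. With the correction for transcript length and GC content the cues had 3 rises, 2 falls and a median of 0.05, and in the limma fit of the 10 animals alone 5 rises and 0 falls. The receptors had a median of 0.06 in A3-1, 0.21 in A3-3, 0.14 in A4-1, 0.32 in A4-3 and 0.24 in A4-4. The sham medians ran from -0.17 to 0.11, so A3-1 was inside the sham range and A4-1 just above it. Receptor transcripts are long, and after correction for transcript length and GC content the median was 0.06, with 5 rises and 2 falls. Celsr2 (chr3:108390851-108415552, mm10), an atypical cadherin of planar polarity that also acts in axon guidance, had 115.7, 130.7, 87.8, 141.0 and 131.2 in sham and 164.0, 228.3, 210.4, 207.8 and 297.8 at 28 dpi. All animals at 28 dpi were above all sham animals (0.86, SE 0.181, limma adjusted p = 0.00232). The semaphorin receptor Plxna4 rose by 0.41 (adjusted p = 0.00172) and Dscam, a receptor for netrins and a self-recognition molecule, by 0.42 (adjusted p = 0.00348), but with that correction by 0.14 (adjusted p = 0.0401) and 0.23 (adjusted p = 0.0127). Among the cues Sema6c rose by 0.40 (adjusted p = 0.0104), whereas Sema3f, a secreted repellent, fell by 0.41 (adjusted p = 0.0183), a call lost without A12-1, A3-3 or A4-3 and in the fit of the 10 animals alone.

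Some ligands and receptors of the TGF-beta and BMP families and of the Notch pathway rose. Of 46 TGF-beta and BMP genes 10 rose and 0 fell in the limma fit (15 higher and 1 lower at an unadjusted p under 0.05), beside 9.46% and 15.1% of all named genes, and the median was 0.06, which turned to -0.01 with the length and GC correction. Bmp7, a BMP ligand, was steady within groups, at 4.7 to 5.4 in sham and 6.8, 7.2, 6.6, 6.4 and 6.8 at 28 dpi (0.41, SE 0.0953, limma adjusted p = 0.00416). Acvr2b, a type II activin receptor, had 1.6 to 2.4 in sham and 2.7 to 3.4 at 28 dpi (0.65, adjusted p = 0.00786). In the Notch list 6 of 25 genes rose and 1 fell, with a median of 0.08 (0.10 with the length and GC correction). Notch1 rose by 0.56 (adjusted p = 0.00238), with overlap because A3-1 had 35.2 and sham values reached 37.3.

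Collagens, laminins and other basement membrane proteins form the matrix around vessels and meninges and a substrate for growing axons. Of 52 measured, 14 rose and 0 fell in the limma fit (18 higher and 0 lower at an unadjusted p under 0.05), beside 9.46% and 15.1% of all named genes, with a median change of 0.27. The median was 0.05 in A3-1, 0.33 in A3-3, 0.27 in A4-1, 0.35 in A4-3 and 0.32 in A4-4, against -0.15 to 0.10 in the sham animals, so A3-1 lay inside the sham range. With the length and GC correction 8 rose, 2 fell and the group median was 0.10. Fn1, fibronectin, had 17.3, 19.3, 13.3, 20.7 and 18.4 in sham and 22.4, 34.0, 38.2, 31.8 and 27.4 at 28 dpi (0.76, SE 0.175, adjusted p = 0.00365). The groups did not overlap and A4-1 was the highest animal. The laminin chains Lama3 and Lama5 rose by 0.75 (adjusted p = 0.00404) and 0.72 (adjusted p = 0.00783), and the collagen VI chain Col6a3 rose by 0.62 (adjusted p = 0.00238). In the perineuronal net, the proteoglycan coat of fast-spiking neurons, 3 of 14 genes rose and 1 fell, and with the length and GC correction 1 rose and 4 fell. Its proteoglycan Acan had 36.2 to 40.0 in sham and 45.4, 55.7, 51.5, 53.3 and 64.0 at 28 dpi without overlap (0.49, SE 0.0867, adjusted p = 0.00139).

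The chromatin regulators Kmt2d, Setd1b and Bptf were among the 15 largest rises of named genes without overlap and with a mean of at least 2. Of 102 histone-modifying and chromatin-remodelling proteins, 36 rose and 6 fell, beside 9.46% and 15.1% of all named genes. Of the 102, 12 were SDEGs that were higher, beside 1.84% of all named genes. For 21 of the 102 the animals at 28 dpi lay entirely above the sham animals, beside 4.66%. Their median change was 0.15, and it was 0.05 in A3-1, 0.21 in A3-3, 0.11 in A4-1, 0.22 in A4-3 and 0.25 in A4-4. The sham medians ran from -0.15 to 0.10, with A3-1 inside that range and A4-1 just above it. Many of these proteins have very long transcripts (median of the list 6993 bases), and after the length and GC correction 21 rose, 13 fell and the median was 0.01. In the fit of the 10 animals alone 29 rose and 2 fell. Kmt2d (chr15:98831669-98871204, mm10), a histone H3 lysine 4 methyltransferase, had 46.5, 41.5, 31.9, 50.2 and 56.4 in sham and 69.6, 110.2, 98.2, 76.1 and 111.3 at 28 dpi. This was a rise of 1.03 (SE 0.213, limma adjusted p = 0.00213) without overlap, and A4-1 was among the high animals. With the length and GC correction the rise was 0.68 (adjusted p = 0.00618). Setd1b, another methyltransferase of this residue, rose by 0.99 (adjusted p = 0.00291).

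A different split was seen for Bptf, the large subunit of the NURF remodelling complex. Sham values were 132.6 to 139.5, and at 28 dpi A4-1 had 147.5 while the other animals had 303.8, 424.6, 307.6 and 262.0 (1.02, SE 0.256, adjusted p = 0.00618 in limma). Bptf, like Gdf7, was thus far above sham in the 4 animals with high 18S ribosomal RNA and close to it in A4-1. Prr12 and Atn1, nuclear proteins linked to neurodevelopment and to a polyglutamine disease, rose by 0.93 (adjusted p = 0.00172) and 0.91 (adjusted p = 0.00396). The histone deacetylase Hdac2 fell by 0.33 (adjusted p = 0.00176), with values of 33.7 to 40.5 in sham and 33.6, 24.0, 32.2, 29.9 and 28.3 at 28 dpi, so the groups were apart by the rounding step.

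RNA-binding proteins were divided. Of 97 splicing factors and RNA-binding proteins, 9 rose and 38 fell, beside 9.46% and 15.1% of all named genes, and the median was -0.15. For 15 the animals at 28 dpi lay entirely below the sham animals, beside 4.44% of all named genes. In the fit of the 10 animals alone 6 rose and 14 fell. The median was -0.02 in A3-1 and -0.03 in A4-1, close to the sham range of -0.02 to 0.04, and -0.17 to -0.19 in the other animals at 28 dpi. Nova2, a neuronal splicing regulator, had 7.7, 10, 7.4, 10.2 and 11 in sham and 16.8, 20.1, 17.7, 16.5 and 21.1 at 28 dpi (0.97, SE 0.173, limma adjusted p = 0.00139). All 5 animals were well above sham. Srrm2, a scaffold of nuclear speckles, rose by 0.64 (adjusted p = 0.00139), and an exon of Elob lies on its opposite strand. Hnrnpk and Srsf1, general splicing and RNA export factors, fell by 0.33 (adjusted p = 0.00139) and by 0.31 (adjusted p = 0.00139) with no overlap between the groups, so A3-1 and A4-1 were below sham as well.

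Several scaffold proteins of synapses rose. Of 54 scaffold proteins of the active zone and postsynaptic density, 19 rose and 0 fell in the limma fit (23 higher and 1 lower at an unadjusted p under 0.05), beside 9.46% and 15.1% of all named genes. Their median change was 0.13 and became -0.01 after the length and GC correction, which left 12 rises and 4 falls. Shank1, a master scaffold of excitatory synapses, had 38.0, 44.1, 38.5, 53.7 and 55.8 in sham and 65.9, 100.7, 84.4, 72 and 96.5 at 28 dpi (0.86, SE 0.16, adjusted p = 0.00145). The groups did not overlap. Sipa1l3, a GTPase activating protein of the same family as a postsynaptic partner of Shank proteins, rose by 0.76 (adjusted p = 0.00139). Of 54 synaptic vesicle and release proteins 8 were up and 10 down, beside 9.46% and 15.1% of all named genes, with a median of -0.05. In the fit of the 10 animals alone 8 were up and 2 down. Syn1, a vesicle-tethering phosphoprotein, rose by 0.63 (adjusted p = 0.00321), though Araf has exons on the opposite strand, and Snap25, a core fusion protein, fell by 0.30 (adjusted p = 0.016), with A3-1 and A4-1 within the sham range and a call lost without A12-1, A12-3, A3-3 or A4-3 and in the fit of the 10 animals alone.

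Among 44 subunits of glutamate, GABA and glycine receptors, 7 rose and 5 fell. With the length and GC correction 5 rose and 9 fell, and the median turned from 0.07 to -0.05. Of the 7 that rose 6 were glutamate receptor subunits, and of the 5 that fell 3 were GABA and 2 glycine receptor subunits, beside 9.46% and 15.1% of all named genes that rose and fell. In the fit of the 10 animals alone 5 rose and 2 fell. Grin2b, an NMDA receptor subunit of immature and extrasynaptic receptors, had 90.6 to 114.9 in sham and 126.9, 176.5, 131.1, 160.5 and 169.4 at 28 dpi (0.54, SE 0.109, limma adjusted p = 0.00187), but with the length and GC correction its change was 0.13 (adjusted p = 0.121). Grin2d, a subunit typical of spinal and brainstem neurons, rose by 0.59 (adjusted p = 0.00356). Glrb, the beta subunit that anchors glycine receptors, fell by 0.28 (adjusted p = 0.00232), with 290.0 to 364.5 in sham and 287.8, 248.9, 262.4, 251.5 and 266.5 at 28 dpi without overlap. Of 73 voltage-gated channel subunits 17 rose and 2 fell, with a median of 0.13, and none was an SDEG. With the length and GC correction 8 rose, 6 fell and the median was 0.04. Cacna1a, the pore of P/Q-type calcium channels that trigger transmitter release, rose by 0.52 (adjusted p = 0.00254). The transmitter genes of spinal neurons moved little, with 2 of 14 higher and 0 lower in the limma fit (2 and 1 at an unadjusted p under 0.05). The glycine transporter Slc6a5 rose by 0.30 (adjusted p = 0.0339, lost without A12-1, A12-2, A4-3 or A4-4 and with the length and GC correction or quantile normalization), and Gad1, the enzyme of GABA synthesis, had a change of -0.16 (adjusted p = 0.403).

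**Figure D3:**
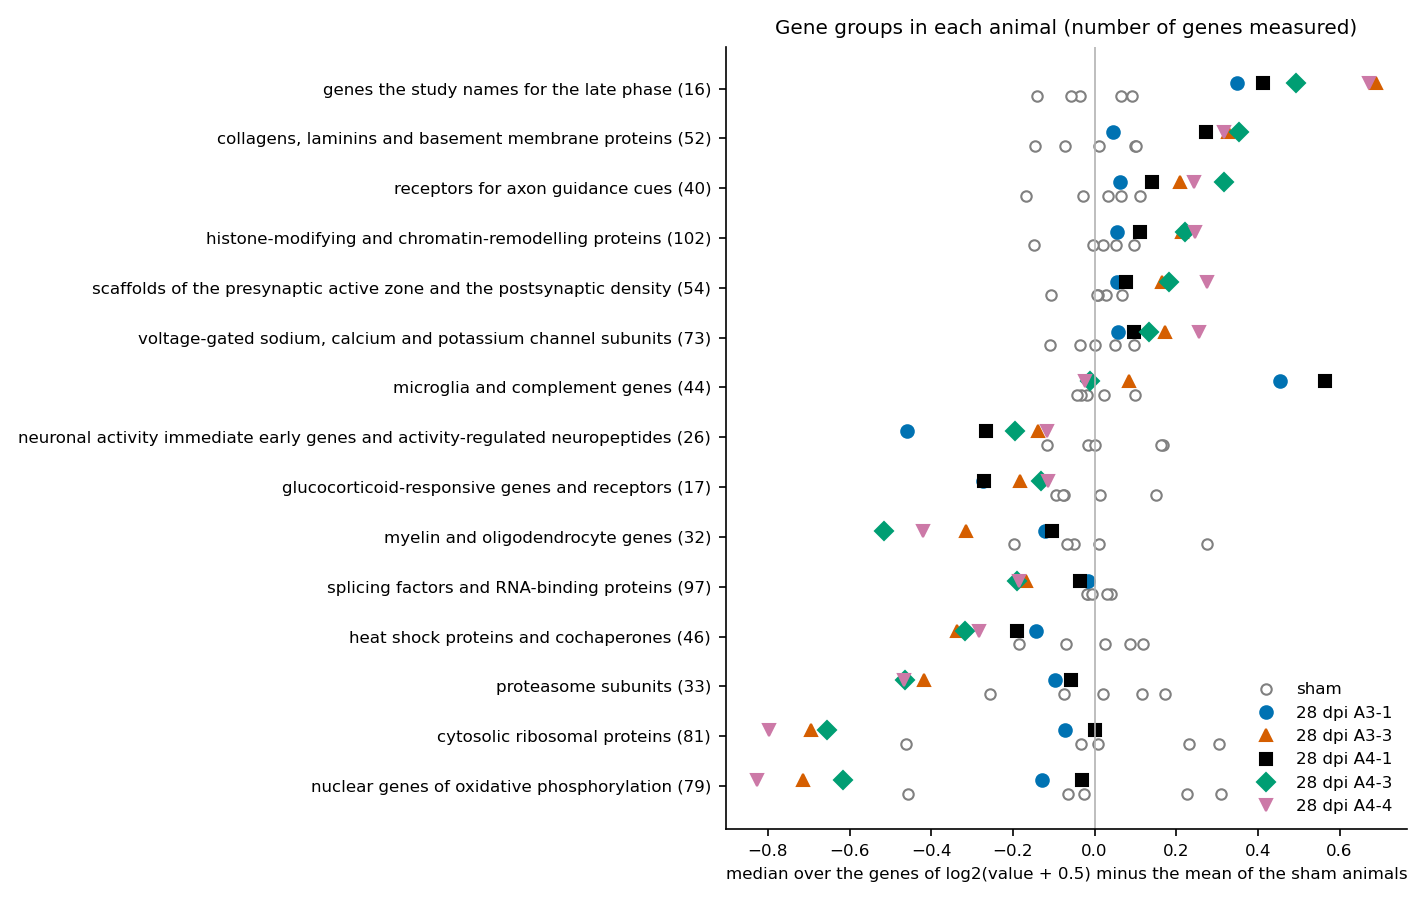
Median over the genes of each group (number of genes measured in brackets) of log2(value + 0.5) minus the mean of the sham animals (horizontal axis), in each sham animal (open circles) and each animal at 28 dpi (filled symbols). For ribosomal proteins and oxidative phosphorylation A3-1 and A4-1 sit within the sham range and the other animals at 28 dpi below it, whereas for the late-phase genes named by the study all animals at 28 dpi are above sham.

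Among genes of axonal growth more fell than rose, as among all named genes (15.1% and 9.46%). Of 31 growth-associated and axonal cytoskeleton genes 4 rose and 10 fell, with a median of -0.19 that was also -0.19 with the length and GC correction. In the fit of the 10 animals alone 2 rose and 4 fell. The medians of A3-1 (-0.05) and A4-1 (-0.03) lay inside the sham range of -0.07 to 0.07, and A3-3 had -0.08, A4-3 -0.23 and A4-4 -0.30. Gap43, a growth cone phosphoprotein, had 32.9, 46.4, 47.0, 35.8 and 54.2 in sham and 40.4, 22.7, 34.8, 23.0 and 23.8 at 28 dpi (-0.59, SE 0.141, limma adjusted p = 0.00463). A3-1 and A4-1 lay within the sham range and the other 3 animals below it. Marcksl1, a related actin-binding phosphoprotein, had 9.3 to 15.4 in sham and 8.0, 6.4, 8.3, 5.6 and 6.7 at 28 dpi without overlap (-0.64, SE 0.141, adjusted p = 0.00312). Stmn1, a tubulin-sequestering protein, also fell without overlap (-0.46, adjusted p = 0.00237), while Map1a, a microtubule-associated protein of mature neurons, rose by 0.60 (adjusted p = 0.00519), or by 0.36 (adjusted p = 0.0188) with the length and GC correction. In a bulk sample a change of this kind, as any given here, cannot be told apart from fewer cells of a type, because fewer cells and less RNA per cell give the same value.

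Of 26 immediate early and activity-regulated genes, neuropeptides among them, 4 fell and 0 rose in the limma fit (5 lower and 0 higher at an unadjusted p under 0.05), a share of falls close to that of all named genes (15.1%). The median was -0.27, and it was -0.46 in A3-1, -0.14 in A3-3, -0.27 in A4-1, -0.19 in A4-3 and -0.12 in A4-4, against -0.12 to 0.17 in sham. Here A3-1 and A4-1 were the lowest animals. Fos, an immediate early transcription factor, had 6.1, 8.5, 12.3, 12.3 and 12 in sham and 4.2, 6.9, 6.0, 6.3 and 7.6 at 28 dpi (-0.66, SE 0.236, adjusted p = 0.0406). The groups overlapped, and the call was lost on leaving out any of A12-1, A12-2, A12-3, A3-1, A3-3, A4-1 and A4-3, and in limma without the trend of the variance on the mean. Dusp6, a phosphatase that limits ERK signalling, fell by 0.41 (adjusted p = 0.0173), a call lost without A12-1. Scg2, a granin of dense core vesicles and precursor of secretoneurin, had 157.6, 171.7, 204.9, 143.6 and 201.3 in sham and 153.9, 97.3, 141.1, 113.3 and 132.2 at 28 dpi (-0.47, SE 0.106, adjusted p = 0.00353).

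The neuropeptide precursors Tac1 and Sst showed the same direction. Tac1 (chr6:7554879-7565834, mm10), the precursor of substance P, had 3.0, 3.9, 3.7, 3.5 and 4.5 in sham and 2.5, 0.8, 2.2, 1.1 and 2.3 at 28 dpi. No animal at 28 dpi reached the lowest sham animal (-0.96, SE 0.339, limma adjusted p = 0.0385), but the call was lost without A11-4, A12-1, A12-2, A12-3, A3-3 or A4-3. It was also lost in limma without the trend of the variance on the mean. Sst, somatostatin, was chosen after its values were seen. Its sham values were 7.1, 7.5, 10.6, 8.7 and 11.5, and at 28 dpi it had 6.7, 4.4, 8.6, 3.3 and 4.8 (-0.71, SE 0.171, adjusted p = 0.00499). A4-1 lay within the sham range.

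Scg2, Sst, Fos and Tac1 are classical targets of the cAMP response element, and Mt1 and Mt2 of the metal response element, so the sequence just before the start of each gene is shown with these motifs. The sequences are from RefSeq (GRCm38.p6) and run 5′ to 3′ on the strand of the gene over the 120 bases before the RefSeq start. For Scg2, Tac1 and Mt1 that start lies inside the span of the gene in the deposited table, so part or all of the stretch shown is inside that span, and for Mt2 it lies outside. Capitals mark TGACG on either strand (TGACGTCA where it is whole) in the first 4 genes and TGCNCNC on either strand in Mt1 and Mt2. The regions are chr1:79440027-79440146 (minus strand) for Scg2, chr16:23890845-23890964 (minus) for Sst, chr12:85473770-85473889 (plus) for Fos, chr6:7554941-7555060 (plus) for Tac1, chr8:94178969-94179088 (plus) for Mt1 and chr8:94172498-94172617 (plus) for Mt2.
Scg2: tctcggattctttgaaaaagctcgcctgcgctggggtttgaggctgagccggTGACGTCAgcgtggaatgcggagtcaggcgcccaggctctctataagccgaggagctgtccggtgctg
Sst: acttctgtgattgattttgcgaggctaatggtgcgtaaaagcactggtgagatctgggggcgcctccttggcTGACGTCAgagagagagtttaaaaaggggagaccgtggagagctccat
Fos: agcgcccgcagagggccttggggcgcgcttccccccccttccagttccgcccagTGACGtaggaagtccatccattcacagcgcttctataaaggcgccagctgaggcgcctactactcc
Tac1: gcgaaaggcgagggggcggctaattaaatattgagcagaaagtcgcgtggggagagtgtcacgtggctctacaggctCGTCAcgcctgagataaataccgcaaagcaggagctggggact
Mt1: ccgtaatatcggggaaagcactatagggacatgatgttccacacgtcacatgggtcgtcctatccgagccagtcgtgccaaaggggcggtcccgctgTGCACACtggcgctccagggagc
Mt2: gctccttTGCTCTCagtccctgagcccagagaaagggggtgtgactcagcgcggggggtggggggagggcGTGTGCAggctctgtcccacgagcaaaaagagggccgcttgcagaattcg
The whole palindrome TGACGTCA stood once in Scg2 and once in Sst, and it is present in 1.55% of 32851 promoter windows of 250 bases. Fos and Tac1 each held TGACG at 2 places in 250 bases, 1 of them in the stretch shown, and 17.8% of the windows hold it. TGCNCNC was found 5 times in the 250 bases of Mt2 and once in those of Mt1, and 44.4% of the windows hold it, so this match is common. The matches are a description of these 6 genes, which were picked after their values were seen.

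Of 17 genes that respond to glucocorticoids 7 fell and 0 rose in the limma fit (8 lower and 0 higher at an unadjusted p under 0.05), beside 15.1% and 9.46% of all named genes, with a median of -0.25, and 5 fell in the fit of the 10 animals alone. The animals' medians were -0.27 in A3-1, -0.18 in A3-3, -0.27 in A4-1, -0.13 in A4-3 and -0.11 in A4-4, all below the sham range of -0.09 to 0.15. Tsc22d3, also called GILZ, a leucine zipper protein induced by glucocorticoids, had 116.7, 147.9, 156.8, 142.5 and 140.2 in sham and 100.3, 95.9, 107.0, 116.5 and 101.5 at 28 dpi (-0.43, SE 0.0888, adjusted p = 0.00213). The groups just failed to meet, at 116.7 and 116.5. Errfi1, an inhibitor of EGF receptors, fell by 0.41 (adjusted p = 0.00187) without overlap. Sgk1, a serum and glucocorticoid induced kinase, had 71.4, 119.9, 39.4, 50.3 and 60.7 in sham and 20.4, 25.0, 34.8, 51.5 and 47.7 at 28 dpi (-0.90, SE 0.277, adjusted p = 0.0191), a call lost without A11-4, A3-1 or A3-3. Mt1 and Mt2 belong to this list too. Among 23 clock genes 4 rose and 0 fell in the limma fit (7 and 2 at an unadjusted p under 0.05), and 2 rose in the fit of the 10 animals alone. The clock repressor Nr1d1, which overlaps Thra on the opposite strand, rose by 0.70 (adjusted p = 0.00164).

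**Figure D4:**
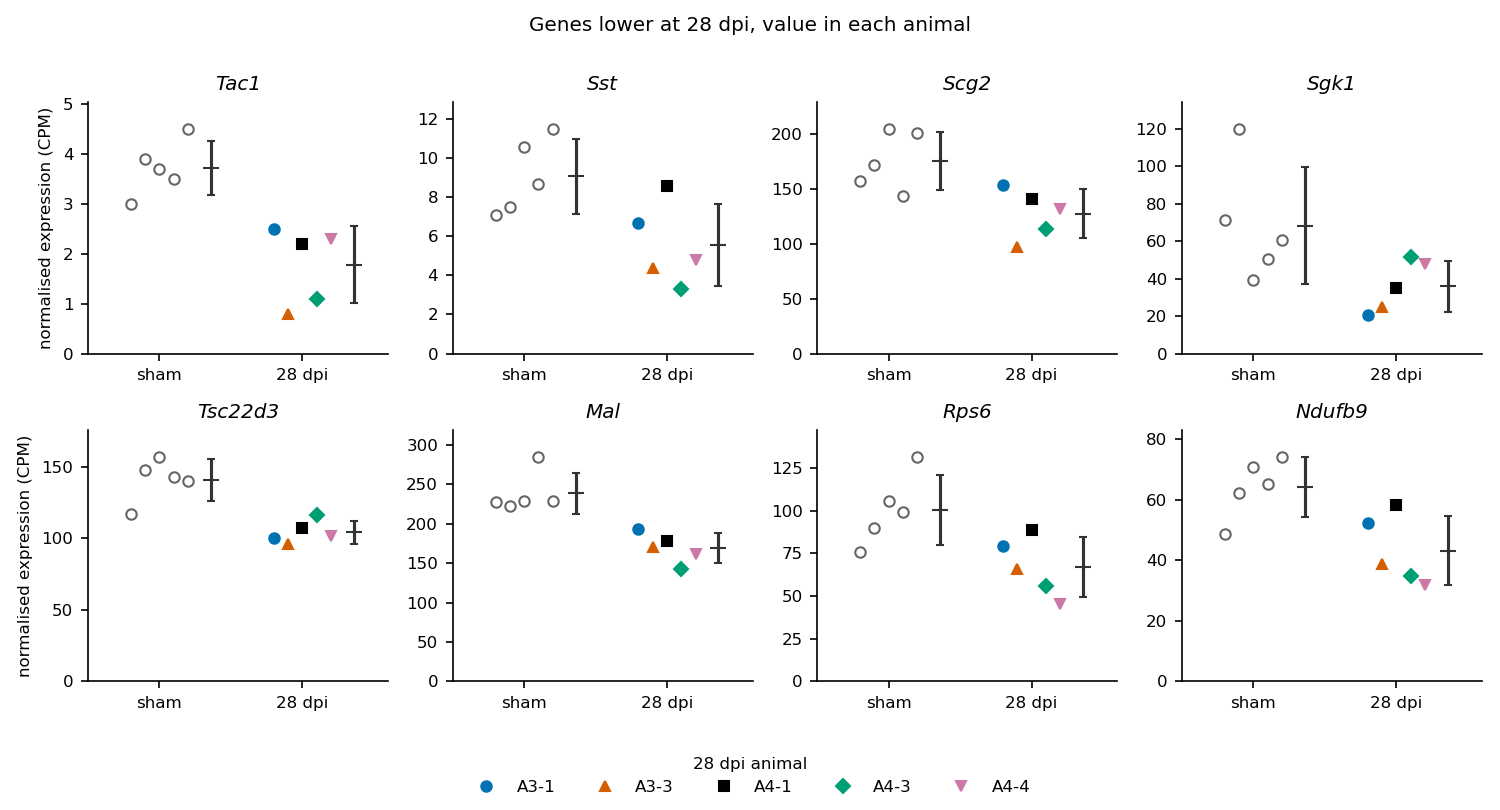
Normalised expression (CPM, vertical axis from 0) of 8 genes that fell, in each sham animal (open circles) and each animal at 28 dpi (filled symbols, 1 per animal), with mean and SD (bars) beside each group. The groups are apart for Tac1, Tsc22d3 and Mal, while A3-1 and A4-1 reach into the sham range for Rps6 and Ndufb9.

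Many genes of translation and energy metabolism fell. Of 81 cytosolic ribosomal proteins 59 fell and 0 rose in the limma fit (73 lower and 0 higher at an unadjusted p under 0.05), with a median of -0.46, and of 79 nuclear genes of oxidative phosphorylation 70 fell and 0 rose (78 and 0), also with -0.46. The test of the 10 animals alone found 9 and 14 falls. The groups overlapped for every ribosomal protein gene, and for 2 oxidative phosphorylation genes the animals at 28 dpi lay entirely below the sham animals, beside 4.44% of named genes. The ribosomal median was -0.07 in A3-1, -0.69 in A3-3, 0.00 in A4-1, -0.65 in A4-3 and -0.80 in A4-4, and among the sham animals it ran from -0.46 in A11-1 to 0.30. These falls were therefore present in 3 of the 5 animals, those with the steep length slope. With the length and GC correction the medians were -0.41 and -0.42. Rps6, the ribosomal protein phosphorylated on growth signals, had 75.6, 90.1, 106.0, 99.1 and 131.5 in sham and 79.1, 65.9, 88.7, 56.0 and 45.6 at 28 dpi (-0.59, adjusted p = 0.00317). Ndufb9, a subunit of complex I, went from 48.7, 62.3, 70.8, 65.2 and 74.1 to 52.2, 38.8, 58.1, 34.9 and 31.8 (-0.59, SE 0.12, adjusted p = 0.00189). Among the 13 protein genes of mitochondrial DNA, 0 rose and 0 fell in the limma fit (1 and 1 at an unadjusted p under 0.05), with a median of -0.02.

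Proteins that fold and degrade other proteins moved alike in direction. Of 33 proteasome subunits 23 fell and 0 rose in the limma fit (28 lower and 1 higher at an unadjusted p under 0.05, median -0.31), beside 15.1% and 9.46% of all named genes, and in the fit of the 10 animals alone 6 fell. Their median was -0.42 in A3-3, -0.46 in A4-3 and -0.47 in A4-4, below the sham range of -0.26 to 0.17, while A3-1 (-0.10) and A4-1 (-0.06) lay inside it. Of 46 heat shock proteins and cochaperones 27 fell and 0 rose in limma (31 and 0 at an unadjusted p under 0.05, median -0.26), 15 fell in the fit of the 10 animals, and 8 lay entirely below the sham animals, beside 4.44% of all named genes. The sham range of their median was -0.18 to 0.12, with A3-1 (-0.14) inside it, A4-1 (-0.19) level with its lowest animal and the other animals at -0.28 to -0.34. Hspa9, the mitochondrial HSP70, had 168.3 to 186.4 in sham and 159.0, 125.0, 135.5, 132.4 and 144.4 at 28 dpi (-0.32, SE 0.0572, adjusted p = 0.00139). All 5 animals were below sham. Psmc1, an ATPase of the proteasome cap, fell by 0.35 (adjusted p = 0.00172) with overlap through A3-1.

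Genes of myelin also fell. Of 32 myelin and oligodendrocyte genes 15 fell and 1 rose, beside 15.1% and 9.46% of all named genes, with a median of -0.32, and 6 lay entirely below the sham animals, beside 4.44%. In the fit of the 10 animals alone 10 fell. The median was -0.12 in A3-1, -0.31 in A3-3, -0.10 in A4-1, -0.51 in A4-3 and -0.42 in A4-4, against -0.20 to 0.28 in sham, so A3-1 and A4-1 lay inside the sham range. Mal, a proteolipid of compact myelin, had 227.9, 222.8, 229.4, 284.8 and 228.9 in sham and 193.5, 170.5, 177.6, 142.1 and 161.5 at 28 dpi (-0.50, SE 0.0993, limma adjusted p = 0.00173). All animals at 28 dpi were lower, A3-1 and A4-1 included. Cldn11, the tight junction protein of myelin, fell by 0.58 (adjusted p = 0.00163) and Mobp by 0.47 (adjusted p = 0.00473), both without overlap. Of the defining markers Mog fell by 0.44 (adjusted p = 0.0043), and Mbp had a change of -0.34 (adjusted p = 0.0702). Mbp passed with quantile normalization, the length and GC correction and rescaling without ribosomal RNA, and without A11-4, A3-1 or A4-1. Myrf, the transcription factor that drives myelin genes, was the 1 member that rose (0.50, adjusted p = 0.00678), with 34.3 to 59.3 in sham and 62.0, 77.1, 73.1, 58.0 and 67.9 at 28 dpi.

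Of 29 astrocyte genes 5 were up and 9 down, beside 9.46% and 15.1% of all named genes, with a median of -0.17. There were 3 up and 5 down in the fit of the 10 animals alone, and 3 up and 12 down with the length and GC correction. The medians of A3-1 (-0.05) and A4-1 (-0.00) lay inside the sham range of -0.07 to 0.05 and those of the other animals at 28 dpi below it. Atp1b2, a sodium pump subunit of astrocytes, had 112.8 to 160.8 in sham and 197.7, 282.9, 263.9, 203.5 and 269.4 at 28 dpi (0.80, SE 0.159, limma adjusted p = 0.00172). The water channel Aqp4 fell by 0.26 (adjusted p = 0.0116) without overlap and the connexin Gjb6 by 0.44 (adjusted p = 0.00237). Gfap, the intermediate filament of reactive astrocytes, had a change of 0.14 (SE 0.236, adjusted p = 0.697).

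Of 44 microglia and complement genes 8 rose and 1 fell, with a median of 0.21, beside 9.46% and 15.1% of all named genes, and 6 rose in the fit of the 10 animals alone. The medians of the animals were 0.45 in A3-1, 0.08 in A3-3, 0.57 in A4-1, -0.01 in A4-3 and -0.02 in A4-4, against -0.04 to 0.10 in sham. Mpeg1, a pore-forming protein of phagocytes, had 5.8, 7.5, 5.4, 7.5 and 6.9 in sham and 15.2, 10.5, 13.4, 8.7 and 9.0 at 28 dpi (0.71, SE 0.22, adjusted p = 0.0194). It was above sham in all 5 animals and highest in A3-1 and A4-1, and the call was lost without A12-1. Lag3, an immune checkpoint receptor also expressed by microglia, had 0.6 to 0.9 in sham and 1.3 to 2.5 at 28 dpi (0.91, adjusted p = 0.00296). Siglech rose by 0.44 (adjusted p = 0.0181, lost without A12-3 or A3-3) and Cx3cr1, the fractalkine receptor, by 0.34 (adjusted p = 0.0252, lost without A12-1, A3-1 or A3-3 and with the length and GC correction), whereas the homeostatic marker P2ry12 had a change of -0.20 (adjusted p = 0.23). Without A3-1 P2ry12 passed, with a change of -0.32. C4b, a complement component with a close paralog, had 11.7, 6.2, 4.8, 15.1 and 4.3 in sham and 29.3, 9.5, 31.9, 14.3 and 11.1 at 28 dpi (1.14, SE 0.368, adjusted p = 0.0251), a call lost without A11-4, A12-1, A12-3, A3-1 or A4-1 and in the fit of the 10 animals alone. In 21 interferon-stimulated genes 1 rose, Trim25 (0.64, adjusted p = 0.0016), and 0 fell in the limma fit (2 and 0 at an unadjusted p under 0.05).

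Of 26 genes of endothelium and mural cells 5 rose and 2 fell (3 and 2 in the fit of the 10 animals alone), beside 9.46% and 15.1% of all named genes. Cell types from outside the laminae were checked by summed values of their markers. Fibroblast and meningeal genes (9 of 10 measured) summed to 45.6 to 52.6 at 28 dpi and 41.1 to 48.6 in sham (exact permutation p = 0.0317), with 1 gene passing, Col1a1 (0.61, adjusted p = 0.0333), a call lost without any of A11-4, A12-1, A12-3, A3-3, A4-1, A4-3 and A4-4. Their part in the rise of matrix genes was not tested. Lymphocyte genes (4 of 9) summed to 4.1 to 6.1 and 2.8 to 4.7 (exact p = 0.0159), with Ms4a1 at 0.3 to 0.8 in sham and 0.8 to 2.1 at 28 dpi. Pituitary genes (4 of 8) summed to 2.5 to 17.7 and 2.5 to 4.3 (exact p = 0.0873), highest in A4-1. Erythroid, Schwann cell, sensory neuron, ependymal and choroid plexus sums gave exact p values of 0.405, 0.183, 0.262, 0.262 and 0.254. For forebrain neurons 1 of 6 markers was measured (exact p = 0.0397, lower at 28 dpi), and skeletal muscle and neutrophil markers were not among the genes in the table. All 10 Hox genes of cervical levels were measured, and 0 passed in the limma fit (1 lower at an unadjusted p under 0.05), with a median of -0.18.

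Among named genes without overlap between the groups and with a mean of at least 2, the largest rises were those of Lars2 and Cdr1. Lars2, a mitochondrial leucyl tRNA synthetase, had 39325.0, 33679.7, 48716.0, 29724.0 and 40130.0 in sham and 235414.7, 464068.6, 49179.6, 213207.5 and 170408.7 at 28 dpi (2.26, SE 0.57, limma adjusted p = 0.00647). It was high in the 4 animals with high 18S ribosomal RNA and at 49179.6 in A4-1, and with quantile normalization its change was 0.0999 (adjusted p = 0.823). In the rescaling without ribosomal RNA, Lars2 was counted with the ribosomal RNA genes. Whether its reads come from the synthetase transcript was not tested. Cdr1 had 35.2, 40.9, 34.9, 29.8 and 48.4 in sham and 123.6, 186.5, 85.8, 135.8 and 103.2 at 28 dpi (1.70, SE 0.285, adjusted p = 0.00133). It was raised in A4-1 too. The noncoding gene C230004F18Rik lies over Cdr1 on the opposite strand, the kit did not mark strand, and the 2 cannot be told apart. Further rises of this kind were Lrtm1 (1.04), a leucine-rich repeat membrane protein, Eif4ebp2 (0.99), an inhibitor of cap-dependent translation that was at 8.7 in A4-1 and 13.9 to 21.5 in the other animals at 28 dpi, Il5ra (0.97), a cytokine receptor subunit, Tox2 (0.94), a transcription factor, Alas2 (0.91), the erythroid enzyme of heme synthesis, and Speer4b (0.99), the last from a multigene family. Falls chosen in the same way were H2afz (-0.65), a histone variant, Id1 (-0.63, lost without A12-1, A4-3 or A4-4), a BMP target and inhibitor of differentiation factors, C1galt1c1 (-0.63), a chaperone of glycosylation, Psmg2 (-0.62), Ssna1 (-0.62) and Fxyd6 (-0.60).

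The changes were also set against the other stroke groups. At 28 dpi, 1192 named genes (8.64%) were SDEGs against 14 dpi, 606 (4.39%) against 7 dpi, 361 (2.62%) against 4 dpi and 15 (0.109%) against 42 dpi. The length slope also separated some of these groups. It was -0.0600 to -0.0234 in the animals at 14 dpi, below every animal at 28 dpi (-0.0016 to 0.1025), and -0.0263 to 0.0081 at 7 dpi, -0.0430 to 0.0335 at 4 dpi and -0.0042 to 0.0287 at 42 dpi. Its part in the differences between groups was not tested. A3-4 at 42 dpi had the same unit as A3-1 and A3-3 at 28 dpi, and the fit did not use the unit. Sema6a was higher at 28 than at 14 dpi by 0.50 (limma adjusted p = 0.000374), Celsr2 by 1.18 (adjusted p = 2.85e-05) and Kmt2d by 1.37 (adjusted p = 3.25e-05). Against 42 dpi the difference passed for Ntng2 (0.59, adjusted p = 0.0331) and Sox9 (0.48, adjusted p = 0.0455) and did not for Sema6a (0.27, adjusted p = 0.139). The microglia genes Mpeg1 (-0.04, adjusted p = 0.892), Lag3 (0.17, adjusted p = 0.511) and Siglech (-0.01, adjusted p = 0.956) gave no difference from 14 dpi that passed the test. Against the shared sham animals, the median of the late-phase genes named by the study was -0.02 at 14 dpi, 0.59 at 28 dpi and 0.21 at 42 dpi. For matrix genes these medians were -0.07, 0.27 and 0.01, for ribosomal proteins 0.32, -0.46 and -0.09, and for myelin genes -0.03, -0.32 and -0.29.

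**Figure D5:**
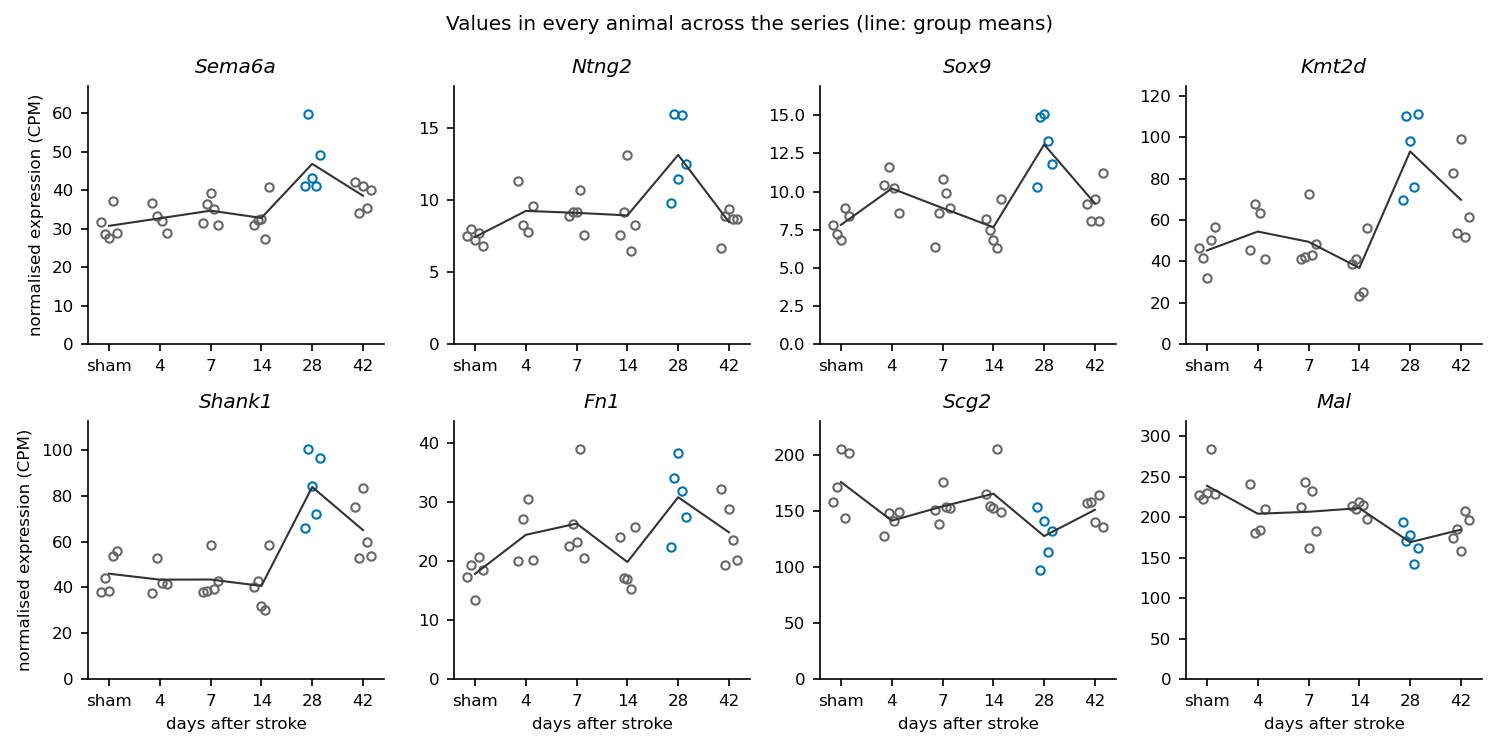
Normalised expression (CPM, vertical axis from 0) of 8 genes in every animal of the sham group and of the 5 stroke groups (horizontal axis, days after stroke), with the line through group means and the animals at 28 dpi in blue. Sema6a, Kmt2d and Shank1 have their highest group mean at 28 dpi, and Scg2 and Mal their lowest.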

How the data were processed

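RNA from 1 animal per sample was ribo-depleted and sequenced as single reads with a kit that does not mark strand. The deposited score values were made by the authors: per the labels and methods, reads were assigned to mouse transcripts (mm10) with SALMON, summed by gene with Tximport, normalised with edgeR 3.14.0 to CPM and filtered for low expression. They are rounded to 0.1, and their sum differs between animals. Read totals were not used here, so the depth is unknown and precision rests on the spread between animals.

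Values were analysed as log2(value + 0.5) in 1 limma fit (3.58.1, R 4.3.3, trend on the mean, 6 groups, 29 animals) with Benjamini-Hochberg adjustment over 16995 genes. Replicates are separate animals. Columns of the authors' fold changes, p-values and calls were not used. Gene positions are from the deposited table, types and transcript lengths from GENCODE M21 (16930 genes found). Placeholder symbols were not counted as named. The genes named are up to 4 per list by adjusted p, defining cell markers, the genes the study names, and the largest changes without overlap and with a mean of at least 2 (the 15 largest rises and all 8 falls). Some of these genes are not reported here. Ribosomal RNA of single animals, left-out animals and rescaling without ribosomal RNA were added after the values were seen. Promoter windows were matched by symbol for 10704 of 13776 named genes. The members and gene lists were chosen with earlier results of these data known. The fit was tested on simulated data. Alternatives were other pseudocounts, filters, normalizations, variance models and limits, length and GC correction, 18S as covariate, and leaving out each animal.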

Additional observations from a re-analysis of the deposited data

Results flagged for a closer look

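Single animals stood apart from the rest of their group in the value of 11 of 208 groups examined, of which chance alone flags about 5 percent; the measure is the gap to the nearest animal divided by the range of the group, with a limit of 0.71 for 5 animals. In the sham group A12-1 was highest for Bptf (0.720) and Hspa9 (0.850) and lowest for Srrm2 (0.903) and Lrtm1 (0.725), A12-2 was highest for Lif (0.797), Cldn11 (0.838) and Mal (0.881), and A11-1 was highest for Acvr2b (0.718). At 28 dpi A3-3 was highest for Speer4b (0.782) and lowest for Psmg2 (0.747) and Fxyd6 (0.770). In each of these 11 genes the adjusted p stayed under 0.05 in limma with that animal left out.

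The change at 28 dpi differed from that at other times by a test of the difference itself, which counted 361 named genes against 4 dpi, 606 against 7 dpi, 1192 against 14 dpi and 15 against 42 dpi.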

How the results depend on the processing

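The counts of SDEGs (308 named, 789 of all genes) and of genes with an adjusted p under 0.05 (4230) moved with several choices. A pseudocount of 1 gave 189 and 466. A fold limit of 2 gave 12 and 52, and an adjusted p limit of 0.01 gave 191, 439 and 1521. The fit of the 10 animals alone gave 2202 genes with an adjusted p under 0.05, with 1387 higher and 815 lower against 2024 and 2206 in the fit of all groups. With 18S as a covariate limma gave 0, 0 and 0 (3751 of all genes at an unadjusted p under 0.05). Rescaling to the same sum gave 10168, 11086 and 11251, with the median gene shifted by -0.73. With A4-1 as the only animal at 28 dpi, assumed to vary like the other groups, the counts were 2, 5 and 9, and with A3-1 and A4-1 they were 0, 0 and 0 in limma (2779 at an unadjusted p under 0.05). Leaving out 1 animal gave 174 to 545, 413 to 1142 and 2198 to 5030. There were 194 named SDEGs without A12-1, 174 without A3-3, 521 without A11-1, 545 without A3-1 and 470 without A4-1, of all genes 509 without A12-1 and 413 without A3-3, and at an adjusted p under 0.05 there were 2198 without A12-1 and 2237 without A3-3. The split of named SDEGs was 195 higher and 108 lower with quantile normalization and 197 and 101 with rescaling without ribosomal RNA, which gave 554 and 135 of all genes and 1531 and 2692 at an adjusted p under 0.05. With median centring the latter were 2246 and 1753, and with the length and GC correction 1508 and 3123.

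Rescaling to the same sum, which left 10 named SDEGs higher and 10158 lower, is set aside in what follows. Among genes that passed and groups with a median change beyond 0.1, the values that changed sign in the other settings were those of Gdf7 with 18S as a covariate (-0.083) and in A4-1 alone (-0.15), the median of the synaptic scaffolds with the length and GC correction (-0.011), and the median of ribosomal proteins in A4-1 alone (0.0007). Of groups with a smaller median, that of the TGF-beta and BMP genes (0.06) turned to -0.01 and that of the glutamate, GABA and glycine receptors (0.07) to -0.05, and that of the genes of mitochondrial DNA (-0.02) to 0.03, with the length and GC correction. The cause was not tested. Of 101 genes named or examined, 96 passed in the main fit. The calls lost were all 96 with 18S as a covariate, 4 in the fit of the 10 animals, 3 with the length and GC correction, 2 without the trend and 2 with quantile normalization. With the covariate the change of 268 of the 308 named SDEGs did not shrink by 1.5 times or more, but that of Lars2 was 0.17, of Bptf 0.06, of Eif4ebp2 0.12, of Cdr1 0.72 and of Tac1 -0.42. No paired analysis was possible because the groups share no replicate numbers; with the unit as a random block 326 named genes, 820 of all genes and 4891 at an adjusted p under 0.05 were counted. The depth is unknown and low values are limited by the rounding step.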

Other observations

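Of 10 Y-linked genes in the table, 4 were SDEGs at 28 dpi although the study used female mice for the transcriptome. Uba1y was at 4 to 4.9 in the sham animals and at 6.9 to 7.4 at 28 dpi. A homolog on the X chromosome exists for some of these genes, and the assignment of the reads was not tested.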
